A study of Homo sapiens with 8 samples.

Results

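The interferon response genes described here are 34 human genes whose transcripts are known to be induced by interferons. They were chosen by symbol, and every probe set whose only gene symbol in the platform annotation was one of the 34 was used, dim ones included. This gave 52 of the 54675 probe sets on the array and covered 33 of the 34 genes, while STAT2 was not analysed here. Of these 33 genes, 18 had 1 probe set and 15 had several. RNA was measured on 8 Affymetrix HG-U133 Plus 2.0 arrays in 4 groups of 2 biological replicates. The groups were SUP-B8 with 0.5 uM GSK126, SUP-B8 with DMSO, NALM-6 with 0.5 uM GSK126 and NALM-6 with DMSO, all kept for 72 hours. SUP-B8 and NALM-6 are human cell lines labelled as acute lymphoblastic leukaemia, DMSO is the solvent used as vehicle, and GSK126 is a drug that selectively blocks EZH2, the Polycomb enzyme that methylates lysine 27 of histone H3. The study's title concerns a substitution in EZH2, and the labels do not state which EZH2 allele either line carries.

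Interferons are secreted proteins that cells release on sensing foreign or misplaced nucleic acid. Type I and type III interferons bind surface receptors, whose JAK kinases phosphorylate STAT proteins. These join IRF9 in a complex that binds interferon-stimulated response elements in the promoters of the induced genes. The induced genes encode RNA sensors, restriction factors against viruses, a ubiquitin-like modifier with its enzymes, chemokines and feedback regulators, and several of them are also transcribed at a lower rate in cells that receive no interferon.

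Replicate arrays correlated across probe sets at r = 0.9977 to 0.9982, and arrays of different lines at 0.9203 to 0.9289. All 7 markers of the B lineage with a probe set lay above the array medians in every group, and all 6 markers of monocytes and macrophages lay below them in every group. Of 8 markers of early B cells, 8 lay above the medians in the arrays labelled SUP-B8 and only MME, the CD10 antigen, did so in those labelled NALM-6. DNTT, the terminal transferase of immature lymphocytes, averaged 13.67 ± 0.13 in SUP-B8 arrays and 6.86 ± 0.04 in NALM-6 arrays under DMSO (SD, n = 2 each). NALM-6 is generally known as a leukaemia line of early B-cell type with terminal transferase, so these arrays go against their label in this respect, and they are called the arrays labelled NALM-6 throughout. Whether labels or cultures of the lines were exchanged was not tested. An exchange would turn every direction given between the lines and would move each GSK126 response to the other line. Of 8 markers of mature B cells, 3 lay above the medians in the arrays labelled SUP-B8 and 7 in those labelled NALM-6.

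Many interferon-induced promoters are known to carry the sequence that the interferon-activated complex reads, so the members' RefSeq promoters (GRCh38.p14) were searched. Each window ran from 250 bases before to 50 bases after the annotated start, and 26 of the 34 genes matched an entry. IFIT2, MX2, OAS2, OASL, IRF7, USP18, IFITM2 and TRIM22 had none. The core searched for the response element was GAAA, any 2 bases, GAAA, on either strand. It was present in a window of 18 of the 26 matched genes (69.2%), against 1195 of 27305 genes in the promoter table (4.38%). No other spacing was searched for it. The core of the gamma-activated site, TTCNNNGAA with N any base, was also searched. That core was present for 8 of the 26 matched genes (30.8%), against 2560 of 27305 genes (9.38%). A match of letters is a description and not a measured binding site, and the members were listed from knowledge of this pathway.

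The windows below, 250 bases long and ending at the base before the start, were chosen after the values were seen. The first 3 were taken from the genes with a response element core that rose under GSK126 in the arrays labelled NALM-6. They show CXCL10 at chr4:76023498-76023747, IFITM3 at chr11:320861-321110 and IFI6 at chr1:27672193-27672442, each on the minus strand. Capitals mark the response element cores.
CXCL10: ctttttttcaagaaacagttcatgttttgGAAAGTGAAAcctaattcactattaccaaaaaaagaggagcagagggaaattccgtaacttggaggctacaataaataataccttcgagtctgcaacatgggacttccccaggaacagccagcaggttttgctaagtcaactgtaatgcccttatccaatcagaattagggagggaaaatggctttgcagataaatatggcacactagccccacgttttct
IFITM3: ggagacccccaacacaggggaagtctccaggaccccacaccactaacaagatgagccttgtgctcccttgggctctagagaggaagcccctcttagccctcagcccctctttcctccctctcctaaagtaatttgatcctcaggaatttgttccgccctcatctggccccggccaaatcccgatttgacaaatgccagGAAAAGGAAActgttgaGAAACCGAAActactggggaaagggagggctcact
IFI6: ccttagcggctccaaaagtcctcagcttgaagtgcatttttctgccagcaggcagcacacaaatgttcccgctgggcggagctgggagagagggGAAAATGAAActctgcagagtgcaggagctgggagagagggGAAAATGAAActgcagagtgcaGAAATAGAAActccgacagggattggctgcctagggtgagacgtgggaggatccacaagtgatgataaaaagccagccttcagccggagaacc
CXCL10 held 1 response element core, IFITM3 held 2 and IFI6 held 3. Other genes that rose held no response element core in their windows, namely OAS1, SAMD9L, IFI35, XAF1, IRF1 and IRF9, and are not shown. Of these, OAS1, IFI35, IRF1 and IRF9 held a gamma-activated site core. The OAS1 window also holds GAAA, 1 base and GAAA, a spacing that was not searched and so is not counted for any gene.

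The other two windows belong to genes that were not called under GSK126 in either line. IFIT1 lies at chr10:89392373-89392622 and HERC5 at chr4:88456869-88457118, both on the plus strand. Capitals mark the response element cores, read here on the opposite strand as TTTC, any 2 bases, TTTC.
IFIT1: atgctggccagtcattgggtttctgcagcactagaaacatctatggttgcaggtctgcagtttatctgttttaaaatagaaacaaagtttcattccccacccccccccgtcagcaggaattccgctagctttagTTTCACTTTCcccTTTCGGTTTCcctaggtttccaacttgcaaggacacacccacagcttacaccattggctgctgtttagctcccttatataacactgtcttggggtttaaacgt
HERC5: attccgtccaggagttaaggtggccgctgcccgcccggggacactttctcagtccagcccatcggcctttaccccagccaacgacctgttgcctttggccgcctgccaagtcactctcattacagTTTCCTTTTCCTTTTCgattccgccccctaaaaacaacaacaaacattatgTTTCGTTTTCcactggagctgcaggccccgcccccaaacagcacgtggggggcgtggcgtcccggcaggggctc
IFIT1 held 2 such cores and HERC5 held 3, of which the first 2 overlap. Among matched genes a response element core was found for 9 of the 15 that rose in the arrays labelled NALM-6 and for the 1 that fell. It was also found for 6 of the 6 tested and not called, and for 2 of the 3 not tested. No test was made on these counts.

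Values are log2 levels as deposited, and each gene is represented by its probe set with the highest mean over the 8 arrays. Levels of different probe sets cannot be set against each other. Testing required a signal above the median of all probe sets on 2 or more of the 8 arrays, and 29 of the 33 genes passed. OASL, IFI44L, RSAD2 and HERC6 did not pass, and all 4 lay below the medians on every array: OASL between 6.72 and 7.14, IFI44L between 5.57 and 6.29, RSAD2 between 5.21 and 5.75, and HERC6 between 5.53 and 6.26. Where both arrays of a group fell below their medians, the group was taken to have no signal shown above background. The gap between the brighter group's mean and the medians is then printed as a lower bound ("at least"), and no size where both groups were that dim. The plot of levels gives every member on every array.

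**Figure D1:**
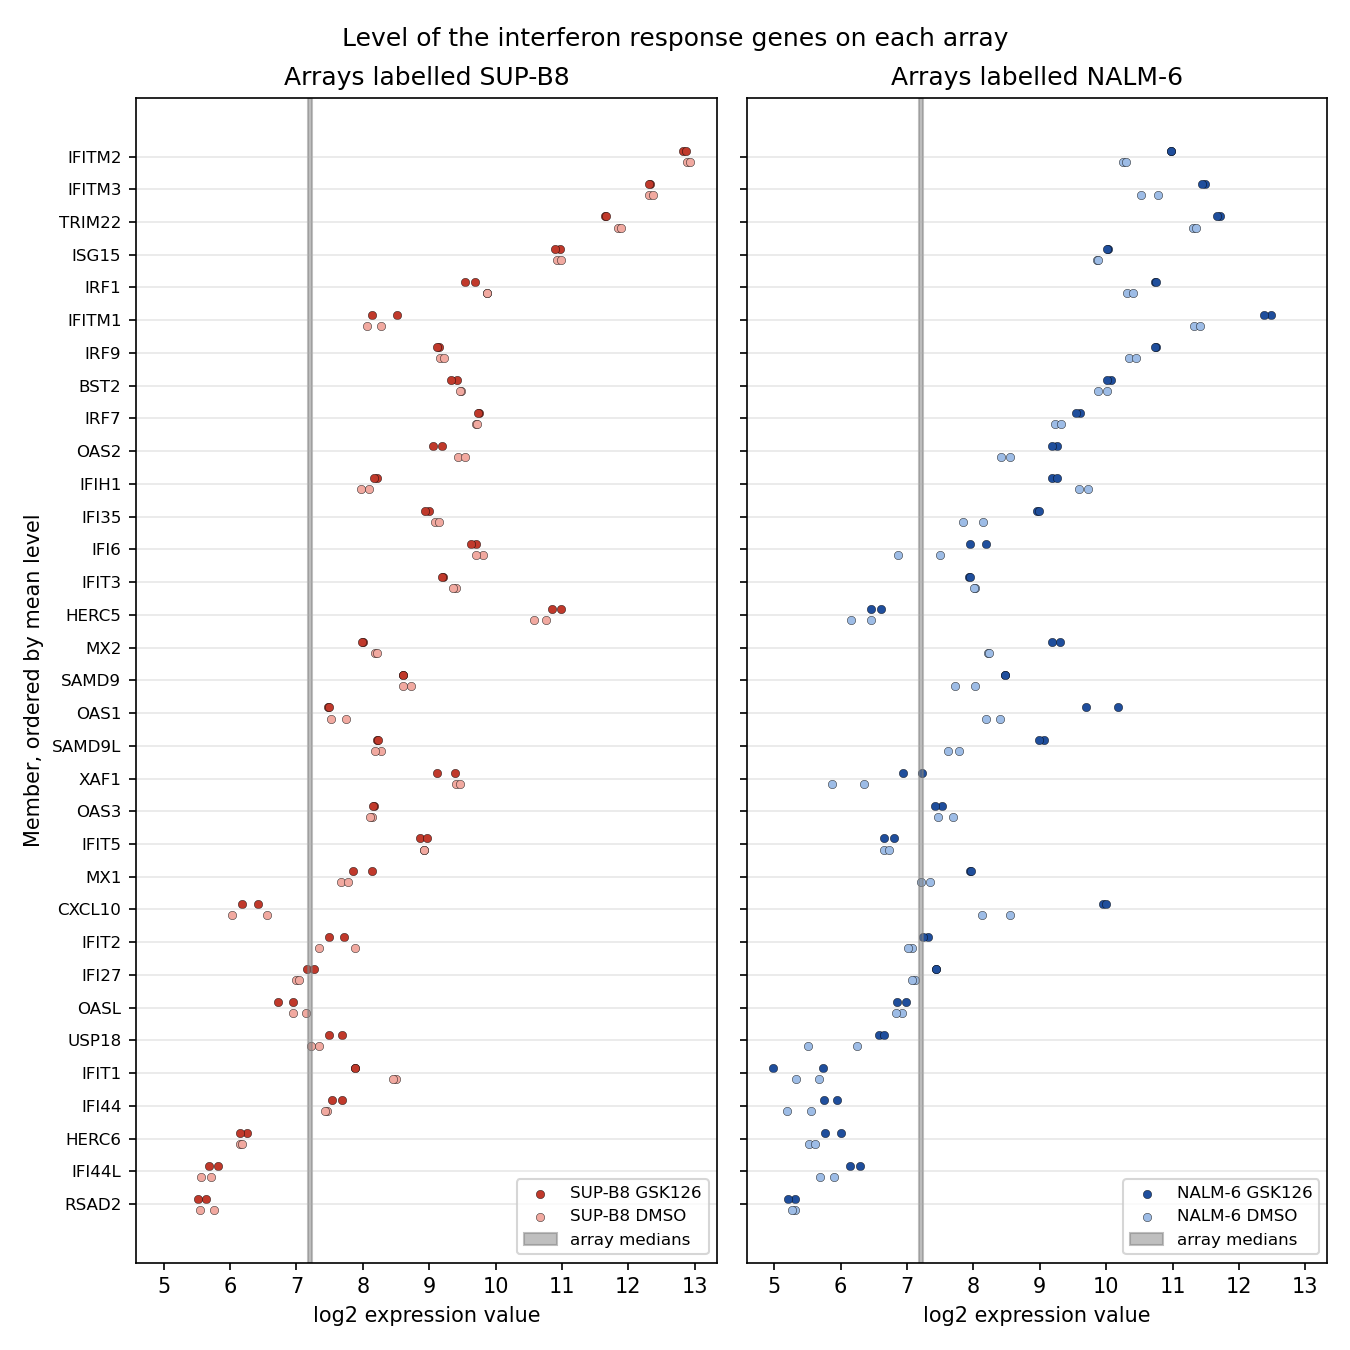
Log2 expression value (horizontal axis) of each interferon response gene on each of the 8 arrays, with arrays labelled SUP-B8 on the left and those labelled NALM-6 on the right. Dark points are GSK126 arrays, pale points DMSO arrays and the grey band the array medians, which lay between 7.18 and 7.24. HERC5 lies between 10.58 and 10.98 on the SUP-B8 arrays and between 6.15 and 6.61 on the NALM-6 arrays.

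With GSK126 the arrays labelled NALM-6 showed a broad rise of interferon response genes. Of the 29 tested, 21 rose and 1 fell at an adjusted p under 0.05 (limma, Benjamini-Hochberg adjustment over 13161 genes), where 20.8% of all genes tested rose and 18.5% fell. The median log2 difference was 0.48 over the 29 genes and 0.02 over all genes tested. With no filter on dim probe sets, 22 of 33 rose and 1 fell, against 13.1% and 10.9% of 19775 genes. OAS1, CXCL10, SAMD9L, IFITM1 and MX2 had log2 differences above 1, while IFIT1, IFIT2, IFIT3, IFIT5, OAS3, BST2 and HERC5 were not called. In a bulk sample a change in the share of cells that make a transcript cannot be told apart from a change of transcript per cell. The arrays labelled NALM-6 with GSK126 and with DMSO both had all 7 B-lineage markers above the medians and all 6 monocyte and macrophage markers below them. The mean level over the 8 markers of mature B cells lay between 10.85 and 10.86 on the GSK126 arrays and between 11.14 and 11.15 on the DMSO arrays. MS4A1, the CD20 antigen, averaged 12.38 ± 0.02 with GSK126 and 13.34 ± 0.01 with DMSO (SD, n = 2 each). The B-lineage markers moved in both directions. CD79B, a chain of the B-cell receptor, averaged 12.66 ± 0.01 with GSK126 and 12.11 ± 0.06 with DMSO, and PAX5 and BLNK also had higher means with GSK126. EBF1 averaged 11.72 ± 0.01 with GSK126 and 12.14 ± 0.02 with DMSO, and CD22, CD72 and CD79A also had lower means with GSK126. The part of these marker shifts in the rise was not tested.

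**Figure D2:**
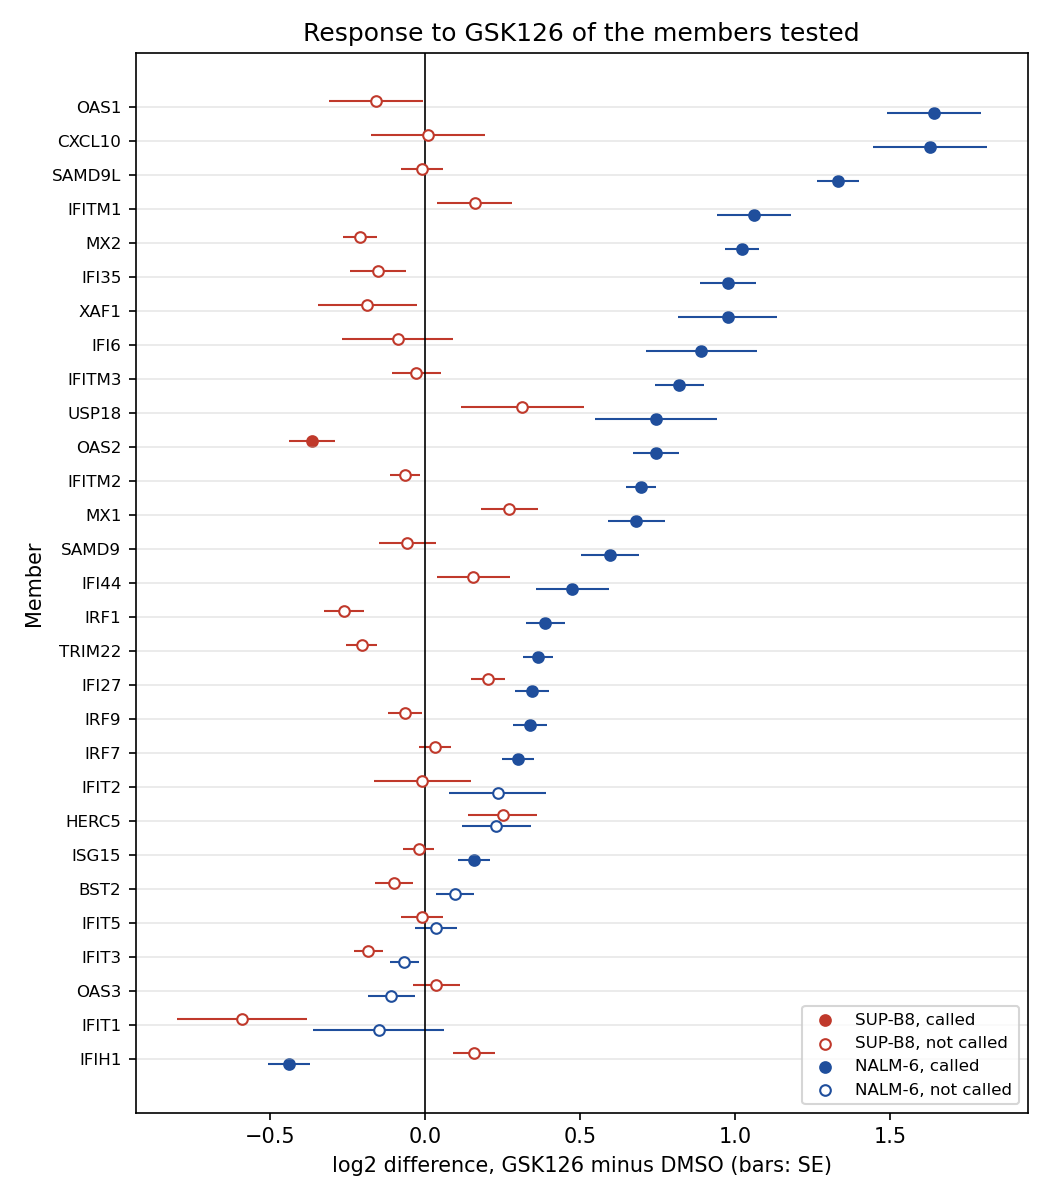
Log2 difference, GSK126 minus DMSO (horizontal axis, bars: SE of the limma fit), of the 29 members tested, in arrays labelled SUP-B8 (red) and NALM-6 (blue). Filled points passed an adjusted p of 0.05, which 22 did in NALM-6 and 1 in SUP-B8. For XAF1, USP18, IFI44, IFIT1, IFIT5 and HERC5 in NALM-6 and for CXCL10 in SUP-B8 both groups lay below the array medians, so their plotted size is not interpretable.

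The OAS genes encode enzymes that make oligoadenylates on meeting double-stranded RNA and so switch on the nuclease RNase L, and the MX genes encode dynamin-like GTPases that trap viral particles. OAS1 read 10.18 and 9.69 in GSK126 arrays labelled NALM-6, against 8.18 and 8.40 in DMSO arrays. The groups did not overlap, and OAS1 rose by 1.64 ± 0.15 (log2 difference ± SE, adjusted p = 8.81e-05), a fold of 3.12. Its 2 probe sets gave differences of 1.64 and 1.70. OAS2 read 9.26 and 9.19 with GSK126, against 8.41 and 8.55 with DMSO, a rise of 0.74 ± 0.07 (adjusted p = 0.000127). Its 3 probe sets all read higher with GSK126, by 0.13 to 0.74, and their mean gave 0.44. OAS3, which forms the longest oligoadenylates, read 7.53 and 7.42 with GSK126 and 7.69 and 7.47 with DMSO, and these groups overlapped (adjusted p = 0.31). MX2, known as a restriction factor of HIV, read 9.19 and 9.31 with GSK126, against 8.22 and 8.24 with DMSO. MX2 rose by 1.02 ± 0.06 (adjusted p = 6.26e-06), a fold of 2.03. MX1, its relative that blocks influenza virus, read 7.95 and 7.96 with GSK126, against 7.34 and 7.21 with DMSO, and rose by 0.68 ± 0.09 (adjusted p = 0.000635).

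The IFITM genes encode small membrane proteins that hinder the fusion of enveloped viruses, and all 3 measured members rose. IFITM1 read 12.48 and 12.37 in GSK126 arrays labelled NALM-6, against 11.32 and 11.41 in DMSO arrays, a rise of 1.06 ± 0.12 (adjusted p = 0.000248). IFITM3 read 11.49 and 11.45 with GSK126, against 10.52 and 10.78 with DMSO, a rise of 0.82 ± 0.08 (adjusted p = 0.000115). IFITM2 read 10.97 and 10.98 with GSK126, against 10.25 and 10.30 with DMSO, a rise of 0.70 ± 0.05 (adjusted p = 2.1e-05). None of the 3 genes had overlapping groups, but the share of all genes tested without overlap was not counted. The 3 genes are close in sequence. The probe sets of IFITM2 and IFITM3 have the suffix that Affymetrix gives to probes that may cross-react. The probe set of IFITM1 has the suffix for probes shared by several transcripts, so the signals of the 3 genes may be partly shared.

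SAMD9 and SAMD9L are neighbouring genes that encode antiviral and growth-restraining proteins. SAMD9L read 9.06 and 8.99 with GSK126, against 7.61 and 7.78 with DMSO, and rose by 1.33 ± 0.07 (adjusted p = 4.48e-06), a fold of 2.52. All 3 of its probe sets read higher with GSK126. Of these, 1 lay below the medians in both groups and another with DMSO, so only the size of 1.33 is read. SAMD9 read 8.47 and 8.47 with GSK126, against 7.72 and 8.03 with DMSO, and rose by 0.60 ± 0.09 (adjusted p = 0.00135). IFI6, a mitochondrial and endoplasmic reticulum protein that restrains flaviviruses, read 7.94 and 8.19 with GSK126, against 7.50 and 6.86 with DMSO. IFI6 rose by 0.89 ± 0.18 (adjusted p = 0.00491), although its DMSO replicates differed from each other more than those of most members, and the lower one lay below its array's median. Without that array, replicate 2 of DMSO, the IFI6 difference was 0.57, and without replicate 1 it was 1.21. TRIM22, an antiviral ubiquitin ligase, read 11.71 and 11.68 with GSK126, against 11.30 and 11.35 with DMSO, a rise of 0.37 ± 0.05 (adjusted p = 0.000595).

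CXCL10, a chemokine that draws T cells through the receptor CXCR3, read 9.95 and 9.99 in GSK126 arrays labelled NALM-6, against 8.13 and 8.54 in DMSO arrays. Its rise of 1.63 ± 0.18 (adjusted p = 0.000253) was a fold of 3.09. In the arrays labelled SUP-B8 the same probe set read 6.18 and 6.42 with GSK126 and 6.02 and 6.56 with DMSO, all below the array medians. IFI35, a cytosolic leucine zipper protein, read 8.96 and 8.98 with GSK126, against 7.84 and 8.15 with DMSO, a rise of 0.98 ± 0.09 (adjusted p = 8.97e-05). In the arrays labelled SUP-B8 it read 8.99 and 8.94 with GSK126 and 9.08 and 9.15 with DMSO, a difference of -0.15 ± 0.09 (adjusted p = 0.435).

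The plot of 9 members by array shows these levels in all 4 groups.

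**Figure D3:**
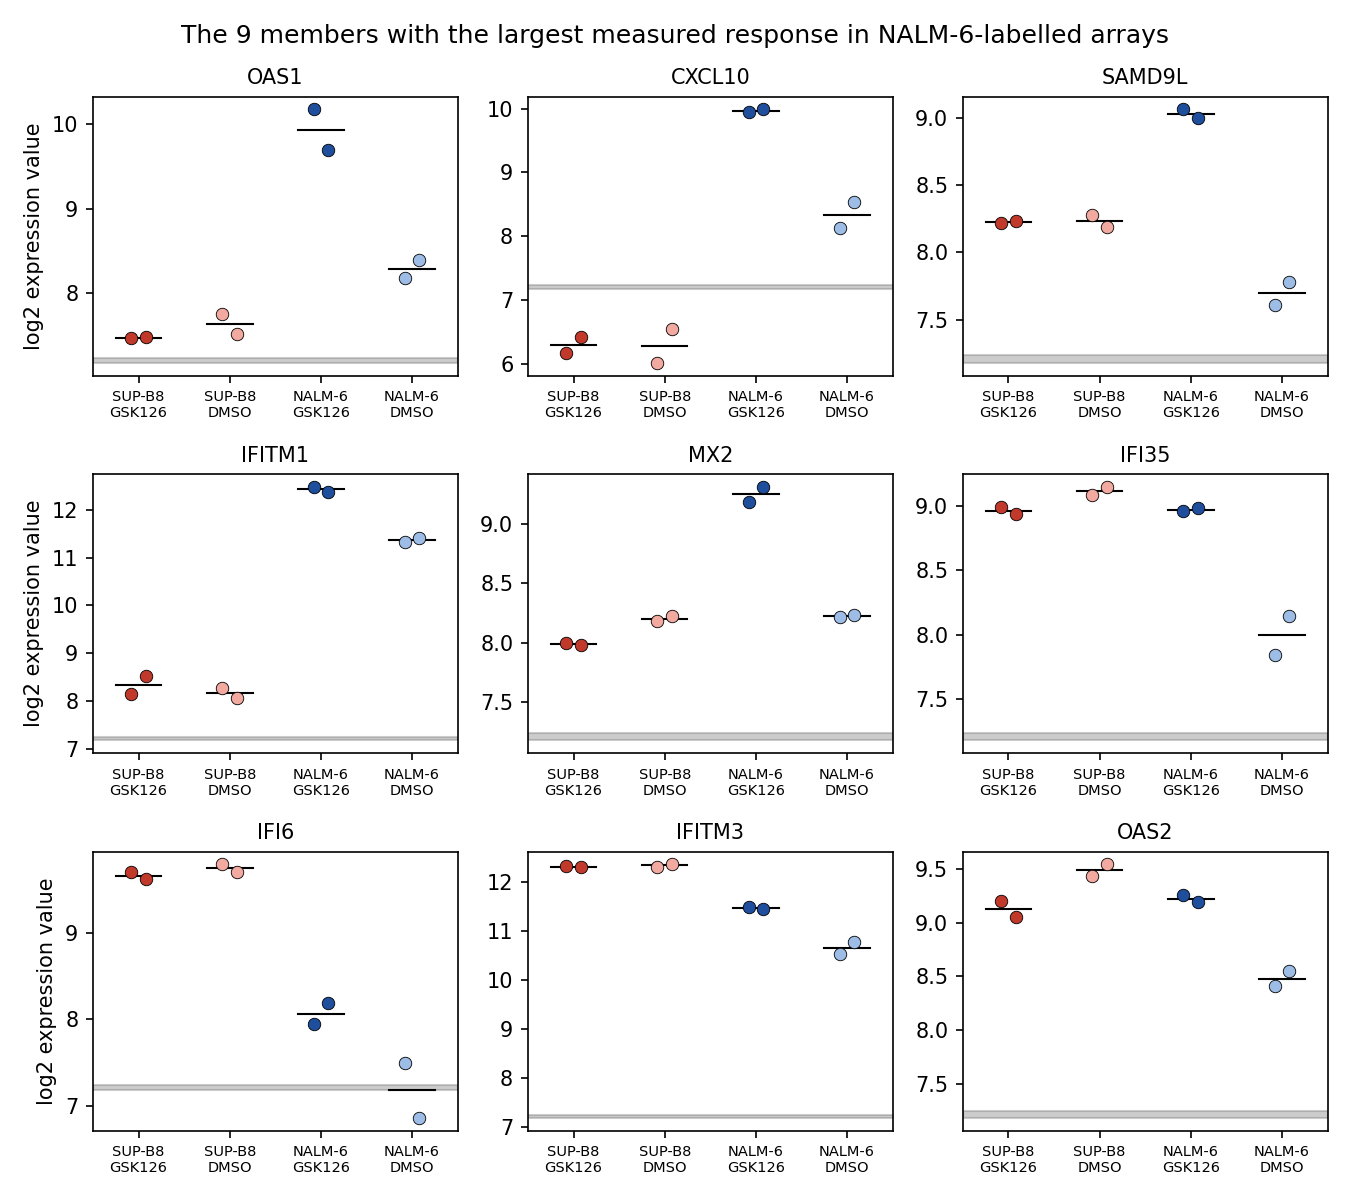
Log2 expression value (vertical axis, a separate scale for each gene) on each array of the 4 groups for the 9 members with the largest rise under GSK126 in arrays labelled NALM-6 among those with a group above the array medians. Points are arrays, horizontal lines group means (n = 2) and the grey band the array medians. In each panel both NALM-6 GSK126 points lie above both NALM-6 DMSO points, and in the IFI35 panel they reach 8.96 and 8.98. The members were picked by the size of this rise, so the separation adds no support.

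A further 4 members with a rise had dim signals. IFI27, a mitochondrial protein, read 7.44 and 7.44 with GSK126, against 7.12 and 7.07 with DMSO, where it lay below the medians, and was higher by at least 0.24 (adjusted p = 0.00137). Over the 8 arrays IFI27 was above the medians only with GSK126. It thus passed the filter through the treatment where it was higher, and its call adds no support. XAF1, an antagonist of the apoptosis inhibitor XIAP, read 6.95 and 7.23 with GSK126, against 5.87 and 6.35 with DMSO. A second XAF1 probe set averaged 7.06 with GSK126 and 7.05 with DMSO, and the third 6.78 and 6.73. Both lay below the medians in both groups, so the XAF1 call rests on its representative probe set. USP18, the protease that removes ISG15 and dampens receptor signalling, read 6.58 and 6.66 with GSK126, against 6.24 and 5.51 with DMSO. IFI44, a cytoplasmic protein, read 5.74 and 5.94 with GSK126, against 5.55 and 5.18 with DMSO. XAF1, USP18 and IFI44 passed the test at adjusted p of 0.00173, 0.0178 and 0.0133, but both groups lay below the array medians, so no size is given for them.

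Among the regulators, the interferon regulatory factors IRF1, IRF7 and IRF9 rose and the RNA sensor IFIH1 fell. IRF1, a transcription factor at the head of the interferon gamma response, read 10.73 and 10.76 with GSK126, against 10.31 and 10.40 with DMSO, a rise of 0.39 ± 0.06 (adjusted p = 0.00172). IRF9, the DNA-binding subunit of the interferon-activated complex, read 10.75 and 10.73 with GSK126, against 10.35 and 10.45 with DMSO, a rise of 0.34 ± 0.05 (adjusted p = 0.00164). IRF7, which amplifies interferon alpha transcription, rose by 0.30 ± 0.05 (adjusted p = 0.00234). None of the 3 had overlapping groups, and here too the share of all genes without overlap was not counted. IFIH1 encodes MDA5, the sensor of long double-stranded RNA in the cytoplasm. It read 9.18 and 9.26 with GSK126, against 9.59 and 9.73 with DMSO, and fell by 0.44 (log2 scale, SE 0.07, adjusted p = 0.00134). A second IFIH1 probe set read 6.34 and 6.44 with GSK126, below the medians, against 7.52 and 7.74 with DMSO, and the last lay below the medians in both groups. The mean of the 3, which includes these dim readings, gave -0.75. Where it could be read, IFIH1 thus ran against the direction of most members.

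ISG15 is a ubiquitin-like protein that HERC5 attaches to other proteins. ISG15 averaged 10.02 ± 0.01 in GSK126 arrays and 9.86 ± 0.01 in DMSO arrays labelled NALM-6 (SD, n = 2 each), a rise of 0.16 ± 0.05 (adjusted p = 0.0388). HERC5 read 6.61 and 6.46 with GSK126 and 6.46 and 6.15 with DMSO, below the medians in both, so no change is read for it. The IFIT genes, whose proteins bind viral RNA ends, did not pass the test with their representative probe sets. IFIT3 averaged 7.94 ± 0.01 with GSK126 and 8.01 ± 0.01 with DMSO (SD, n = 2 each, adjusted p = 0.306), and IFIT2 averaged 7.28 ± 0.06 with GSK126 and 7.04 ± 0.05 with DMSO (adjusted p = 0.285). IFIT1 and IFIT5 lay below the medians in both groups. The second IFIT3 probe set averaged 5.50 with GSK126 and 6.22 with DMSO, and the second of IFIT2 averaged 6.68 and 6.19. Both lay below the medians in both groups, so no size is read for them. For the representative probe set of IFIT3 the 95% interval of the difference ran from -0.17 to 0.04. For BST2, the virus-tethering membrane protein, it ran from -0.05 to 0.24.

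In the arrays labelled SUP-B8, GSK126 left the interferon response genes almost without calls. None of the 29 tested genes rose and 1, OAS2, fell by limma, where 1.91% of all genes tested rose and 0.334% fell. With no filter on dim probe sets, 0 of 33 rose and 0 fell, against 0.738% and 0.0708% of all genes. At an unadjusted p under 0.05 in limma, 3 of the 29 were higher and 6 lower, against 8.18% and 8.52% of all genes tested, and with no filter 2 of 33 were higher and 6 lower, against 6.08% and 6.81%. The median log2 difference was -0.03 over the 29 genes and -0.02 over all genes tested. OAS2 read 9.20 and 9.05 in GSK126 arrays labelled SUP-B8, against 9.44 and 9.54 in DMSO arrays. It fell by 0.36 (log2 scale, SE 0.07, adjusted p = 0.0497), close to the threshold, and the call was lost under 14 of 18 alternatives. All 3 of its probe sets read lower with GSK126, with differences of -0.51 to -0.30.

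The largest other differences in the arrays labelled SUP-B8 did not pass the test. IFIT1 read 7.88 and 7.89 with GSK126, against 8.50 and 8.46 with DMSO. Its difference of -0.59 ± 0.21 (adjusted p = 0.222) is larger than the spread of these 4 arrays, while its SE comes from all 4 groups. Over the alternatives its adjusted p ranged from 0.0137 with only the SUP-B8 arrays fitted to 1 with a fold threshold of 1.2, and it also passed without either GSK126 array labelled NALM-6 (adjusted p = 0.0406, limma). The IFIT1 SD was 0.01 with GSK126 and 0.03 with DMSO in SUP-B8, and 0.53 with GSK126 and 0.25 with DMSO in NALM-6, where the gene lay below the medians. IRF1 read 9.69 and 9.53 with GSK126, against 9.88 and 9.87 with DMSO, a difference of -0.26 ± 0.06 (adjusted p = 0.0904), and was called under 2 of 18 alternatives. USP18 averaged 7.59 ± 0.13 with GSK126 and 7.28 ± 0.09 with DMSO (SD, n = 2 each), a difference of 0.31 ± 0.20 (adjusted p = 0.461). MX1 differed by 0.27 ± 0.09 (adjusted p = 0.205) and HERC5 by 0.25 ± 0.11 (adjusted p = 0.308). For CXCL10 both SUP-B8 groups lay below the medians, and for OAS1 the 95% interval of the difference ran from -0.51 to 0.19.

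The difference between the 2 responses was tested directly, as SUP-B8 minus NALM-6. It was called lower than 0 for 16 of the 29 tested genes and higher for 1, where 14.5% of all genes tested were lower and 10.9% higher. OAS1 differed by -0.16 ± 0.15 under GSK126 in SUP-B8 and by 1.64 ± 0.15 in NALM-6, a difference of responses of -1.80 ± 0.21 (adjusted p = 0.00077). SAMD9L (-1.34 ± 0.10, adjusted p = 6.86e-05), MX2 (-1.23 ± 0.08, adjusted p = 4.31e-05) and OAS2 (-1.11 ± 0.10, adjusted p = 0.000244) followed the same direction. For CXCL10 the value was -1.62 ± 0.26 (adjusted p = 0.00319), with the SUP-B8 arrays below the medians, where a change could not be read. IFIH1 was the only member called above 0, with a difference of responses of 0.60 ± 0.10 (adjusted p = 0.00329). For MX1 the difference of responses was -0.41 ± 0.13 (adjusted p = 0.0516), for ISG15 -0.18 ± 0.07 (adjusted p = 0.11) and for HERC5 0.02 ± 0.16 (adjusted p = 0.942), and none of these passed.

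Under DMSO alone, most interferon response genes had the higher level in SUP-B8, while a smaller set, IFITM1 and CXCL10 among them, was lower there. These directions, like all between the lines, hold for the labels as given. Of the 29 tested genes, 20 were higher and 7 lower, where 37.8% of all genes tested were higher and 30.6% lower. With no filter on dim probe sets, 22 of 33 were higher and 7 lower, against 26.5% and 21.7% of all genes. The median log2 difference was 0.56 over the 29 genes and 0.04 over all genes tested. Most genes differed between the lines, so the calls of single members are read by their size. HERC5, XAF1, IFIT1, IFIT5, IFI44 and USP18 were above the medians only on SUP-B8 arrays, and CXCL10 only on NALM-6 arrays. IFIT2 was above them on the SUP-B8 arrays and on replicate 1 of NALM-6 with GSK126. These genes passed the filter through the brighter line, so their calls and p-values here add no support. Among genes above the medians on all 8 arrays, 12 of 19 members were higher and 6 lower. The share of all genes under that filter was not counted.

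HERC5, the ISG15 ligase, read 10.58 and 10.76 in SUP-B8 arrays, against 6.46 and 6.15 in NALM-6 arrays, where it lay below the medians, and was higher by at least 3.47 (adjusted p = 5.79e-09). XAF1 read 9.41 and 9.47 in SUP-B8, against 5.87 and 6.35 in NALM-6, higher by at least 2.24 (adjusted p = 2.32e-07). IFIT5 read 8.93 and 8.92 in SUP-B8, against 6.65 and 6.72 in NALM-6, higher by at least 1.73 (adjusted p = 1.5e-08). With their representative probe sets, HERC5, XAF1 and IFIT5 were readily measured in one line and below the medians in the other. IFIT1 read 8.50 and 8.46 in SUP-B8, against 5.68 and 5.33 in NALM-6, higher by at least 1.28. IFI44 was higher by at least 0.26 and USP18 by at least 0.08. The representative probe set of IFIT3 averaged 9.38 in SUP-B8 and 8.01 in NALM-6, a difference of 1.37, while its second probe set averaged 10.68 in SUP-B8 and 6.22, below the medians, in NALM-6.

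The IFITM probe sets, whose signals may be partly shared, split between the lines. IFITM2 read 12.89 and 12.94 in SUP-B8 arrays, against 10.25 and 10.30 in NALM-6 arrays, higher by 2.63 ± 0.05 (adjusted p = 1.1e-09). IFITM3 read 12.32 and 12.37 in SUP-B8, against 10.52 and 10.78 in NALM-6, higher by 1.69 ± 0.08 (adjusted p = 2.03e-07). IFITM1 went the other way, with 8.27 and 8.07 in SUP-B8, against 11.32 and 11.41 in NALM-6, a difference of -3.20 ± 0.12 (adjusted p = 5.27e-08). IFI6 read 9.81 and 9.71 in SUP-B8, against 7.50 and 6.86 in NALM-6, higher by 2.58 ± 0.18 (adjusted p = 2.31e-06).

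Besides IFITM1, the genes lower in the arrays labelled SUP-B8 were CXCL10, IFIH1, IRF9, OAS1, IRF1 and BST2. CXCL10 read 6.02 and 6.56 in SUP-B8, below the medians, against 8.13 and 8.54 in NALM-6, lower in SUP-B8 by at least 1.14 (adjusted p = 1.24e-05). IFIH1 read 7.97 and 8.10 in SUP-B8, against 9.59 and 9.73 in NALM-6, a difference of -1.62 ± 0.07 (adjusted p = 1.07e-07). IRF9 averaged 9.20 ± 0.04 in SUP-B8 and 10.40 ± 0.08 in NALM-6 (SD, n = 2 each), a difference of -1.20 ± 0.05. Among the members tested, the line difference of 2 turned with the probe set: one of the 3 OAS2 probe sets gave -0.75 where the representative gave 1.01, and the second IRF1 probe set gave 0.73 where the representative gave -0.48. The line difference and the GSK126 response of the arrays labelled NALM-6 share the DMSO arrays of that line, so their values are set side by side here without a comparison. HERC5, for example, was at least 3.47 higher in SUP-B8 and not called under GSK126, IFITM2 was 2.63 higher in SUP-B8 and rose by 0.70 with GSK126 in NALM-6, and IFITM1 was lower in SUP-B8 and rose by 1.06.

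**Figure D4:**
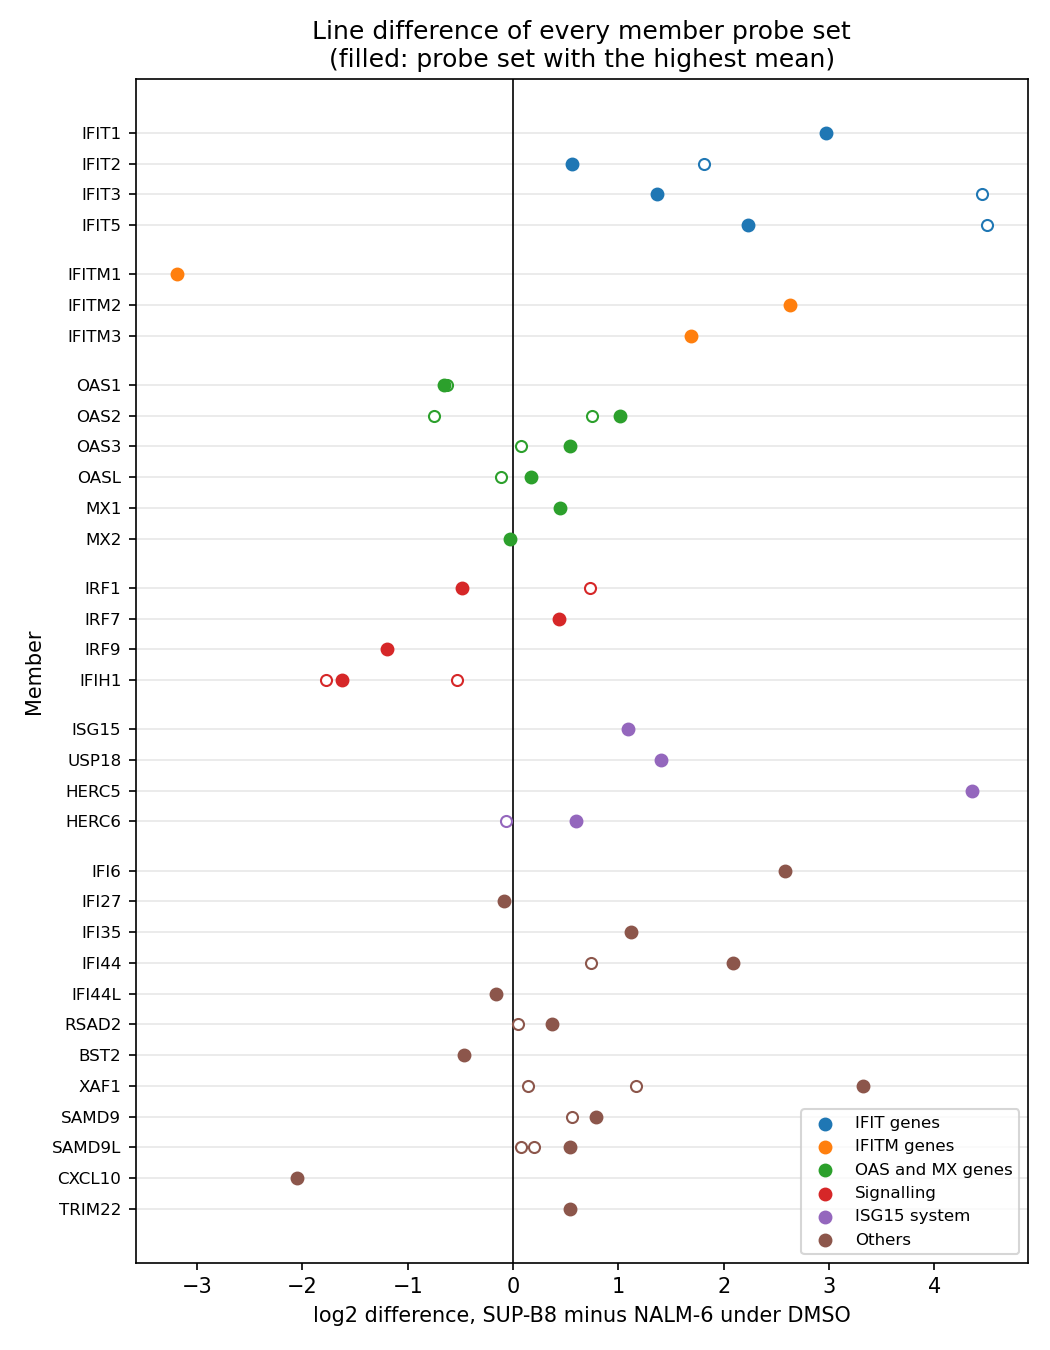
Log2 difference between the lines under DMSO, SUP-B8 minus NALM-6 (horizontal axis), for every probe set of the 33 members with one, coloured by role. Filled points are the probe sets that represent the genes and open points the others. IFITM1 lies at -3.20, far from IFITM2 at 2.63 and IFITM3 at 1.69, and sizes against groups below the array medians are not interpretable.

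The rest of the pathway was followed through 123 other genes in 6 lists, of which 115 had a probe set and 82 were tested. In the arrays labelled NALM-6, 33 of the 82 rose and 15 fell with GSK126, where 20.8% of all genes tested rose and 18.5% fell, and their median log2 difference was 0.13. Most of the rises lay among 40 other interferon-stimulated genes, of which 20 rose and 3 fell, with a median of 0.21. TNFSF10, the death ligand TRAIL, read 8.78 and 8.76 with GSK126, against 7.42 and 7.47 with DMSO, a rise of 1.33 ± 0.14 (adjusted p = 0.000155). APOL3, an apolipoprotein L of the cytosol, rose by 1.22 ± 0.04, PLSCR1, a phospholipid scramblase, by 1.15 ± 0.06, and ISG20, an exonuclease that degrades RNA, by 1.04 ± 0.08. The 3 genes that fell were PNPT1, DTX3L and PARP9, by differences of -0.29 to -0.23.

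Of 11 receptors, kinases and STATs tested, 3 rose and 3 fell in the arrays labelled NALM-6. With so few genes, this count and those of the next lists are given as descriptions beside the 20.8% and 18.5% of all genes that rose and fell. STAT3 read 12.31 and 12.29 with GSK126, against 11.11 and 11.11 with DMSO, a rise of 1.19 ± 0.05 (adjusted p = 3.27e-06), while JAK2, a kinase of the interferon gamma receptor, differed by -0.84 ± 0.07 (adjusted p = 4.8e-05). IFNLR1, the lambda interferon receptor, differed by -0.74 ± 0.09 (adjusted p = 0.00038), and IL10RB, its partner chain, by 0.59 ± 0.08 (adjusted p = 0.000803). Of 12 sensors and adaptors, 5 rose and 2 fell. MAVS, the mitochondrial adaptor of the RNA sensors, rose by 0.60 ± 0.05 (adjusted p = 5.06e-05) and TLR9, the endosomal DNA receptor, by 0.37 ± 0.07 (adjusted p = 0.0039). CGAS, the cytosolic DNA sensor, fell by 0.75 on the log2 scale (SE 0.07) and TICAM1, the adaptor of TLR3, by 0.51 (SE 0.08).

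Of 5 other IRF genes 1 rose and 2 fell: IRF4 rose by 0.49 ± 0.05, while IRF5 (-0.73 ± 0.09) and IRF8 (-0.26 ± 0.06) fell. Of 13 negative regulators, 4 rose and 5 fell, beside the same 20.8% and 18.5% of all genes. PTPN1 (0.41 ± 0.07) and TRIM27 (0.39 ± 0.06) rose, and PIAS1 (-0.65 ± 0.06) and PTPN6, the phosphatase SHP-1 (-0.61 ± 0.05), fell. Of 20 interferon genes listed, 18 had a probe set and only IFNA17 was bright enough to be tested. IFNA17 averaged 7.45 ± 0.06 with GSK126 and 7.38 ± 0.20 with DMSO in arrays labelled NALM-6 (SD, n = 2 each, adjusted p = 0.622). Its probe set lay close to the medians and has the suffix for probes that may cross-react, so transcription of IFNA17 itself is not shown. The other 17 were above the medians on fewer than 2 arrays, so no change is read for them.

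**Figure D5:**
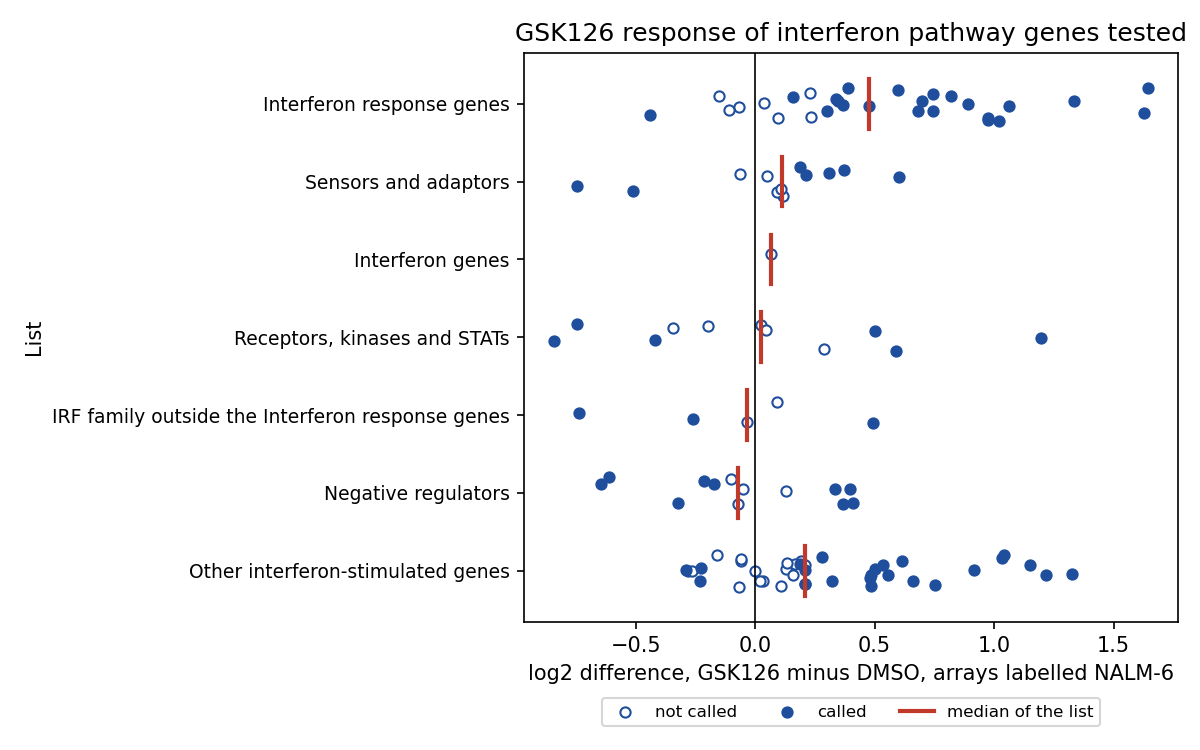
Log2 difference, GSK126 minus DMSO in arrays labelled NALM-6 (horizontal axis), of each tested gene of the interferon response genes (top row) and of 6 other pathway lists. Filled points passed an adjusted p of 0.05 and red bars are list medians, which reach 0.48 for the interferon response genes and 0.21 for the other interferon-stimulated genes.

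In the arrays labelled SUP-B8, 2 of the 82 other pathway genes rose and 1 fell with GSK126, which is few genes and near the 1.91% and 0.334% of all genes tested. CMPK2, a mitochondrial nucleotide kinase, read 8.75 and 8.71 with GSK126, against 7.96 and 8.10 with DMSO, and rose by 0.70 ± 0.08 (adjusted p = 0.00744). IFNLR1, below the medians with DMSO, was higher by at least 0.23 (adjusted p = 0.0372). APOL3 fell by 0.22 (log2 scale, SE 0.04, adjusted p = 0.0496). Under DMSO, 2 of the 11 receptors, kinases and STATs were higher in SUP-B8 and 8 lower, where 37.8% of all genes tested were higher and 30.6% lower. IFNLR1 read 6.96 and 6.90 in SUP-B8, against 11.82 and 11.96 in NALM-6, lower by at least 4.69 in SUP-B8. IFNAR2, a chain of the type I receptor, differed by -2.75 ± 0.10, IFNGR2 by -2.68 ± 0.17 and JAK2 by -2.56 ± 0.07. IRF8 differed by -4.71 ± 0.06 and IRF5 by -2.66 ± 0.09, whereas EIF2AK2, the RNA-activated kinase PKR, was higher in SUP-B8 by 1.59 ± 0.05. Of the 40 other interferon-stimulated genes, 28 were higher in SUP-B8 and 9 lower, beside the same 37.8% and 30.6% of all genes. SLFN11, which blocks stressed replication forks, was higher by at least 3.51 and GBP4, a guanylate-binding GTPase, by at least 2.44. Both were above the medians only on SUP-B8 arrays, so they passed the filter through the brighter line and their calls add no support.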

How the data were processed

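Expression was measured in 8 cultures on Affymetrix HG-U133 Plus 2.0 arrays. The authors deposited 1 log2 value per probe set and array; the log2 unit was read from the values. MAS5 and RMA are named in the submitters' processing notes, with role, version and genome build not given in the sources used here. Between-array normalization hides a change shared by most transcripts, no detection calls were used, and precision is limited by how few arrays there are. All columns were mapped to samples by their titles.

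Each gene was its probe set with a single symbol and the highest mean. Of the 54675 probe sets, 41097 had 1 symbol, 1801 several and 11777 none listed. Requiring a value above the array median on 2 or more of 8 arrays left 13161 of 19775 genes for testing. limma version 3.58.1 in R version 4.3.3 was fitted to all 8 arrays with a mean for each group, leaving 4 residual degrees of freedom. The 4 contrasts were the GSK126 response of each line (GSK126 minus DMSO), SUP-B8 response minus NALM-6 response, and the lines under DMSO (SUP-B8 minus NALM-6). Benjamini-Hochberg adjustment over all genes tested was used, with calls at 0.05. The smallest two-sided p of an exact permutation test with 2 arrays against 2 is 0.333, and calls rest on the model instead. The fit was tested on simulated data. Python version 3.11.15 prepared the tables. Replicates are biological per the labels, which the p-values take as given.

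Members named with values were those called in a GSK126 contrast with a log2 difference of at least 0.3 in size, or the 6 largest differences where fewer were. For the lines the 12 largest called differences were named, and from each pathway list up to 4 called genes. ISG15, IRF7, BST2, OAS3, PNPT1, DTX3L, PARP9 and the other uncalled members were named after their values were seen. The members, lists and tests were chosen with earlier results of these data known. Promoters came from RefSeq (GRCh38.p14). Alternatives covered the filter, the probe set, renewed normalization, centring, the variance prior, the arrays fitted, a replicate block, a fold threshold and omission of each array.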

Additional observations from a re-analysis of the deposited data

Results flagged for a closer look

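The response to GSK126 differed between the lines for 17 members by the interaction term of the limma fit, given here as the response of arrays labelled SUP-B8 minus that of arrays labelled NALM-6 on the log2 scale. Among the oligoadenylate synthetases and MX genes these were OAS1 (-1.80), OAS2 (-1.11) and MX2 (-1.23). The membrane restriction factors were IFITM1 (-0.90), IFITM2 (-0.76) and IFITM3 (-0.85), and the regulators were IRF1 (-0.65), IRF7 (-0.27), IRF9 (-0.40) and IFIH1 (0.60). The others were SAMD9 (-0.65), SAMD9L (-1.34), CXCL10 (-1.62), IFI6 (-0.98), IFI35 (-1.13), XAF1 (-1.16) and TRIM22 (-0.57). For CXCL10 the SUP-B8 arrays, and for XAF1 the NALM-6 arrays, lay below the array medians, so the fitted sizes of these 2 genes are not interpretable.

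Among the other pathway genes, the same term differed for the sensors and adaptors MAVS (-0.56), CGAS (0.56), TICAM1 (0.53) and TLR9 (-0.51). It differed for the receptors and signal carriers IFNLR1 (1.24), STAT3 (-1.16), JAK2 (0.99) and IL10RB (-0.70) and for the transcription factors IRF4 (-0.41), IRF5 (0.69) and IRF8 (0.43). It also differed for the negative regulators PIAS1 (0.61), PTPN6 (0.59), TRIM27 (-0.44) and SOCS1 (-0.42) and for the interferon-stimulated genes APOL3 (-1.44), GBP1 (-1.33), SP110 (-1.07) and ISG20 (-1.07). These genes were the largest called differences of each list, but GBP1 lay below the medians in the arrays labelled NALM-6 and IFNLR1 in SUP-B8 with DMSO, so their fitted sizes are not interpretable.

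A pair of probe sets that name several genes stood outside the gene tests and showed a signal in the arrays labelled NALM-6. The probe set shared by IFITM2 and IFITM1 averaged 12.55 with GSK126 and 11.50 with DMSO, a difference of 1.04 on the log2 scale. The probe set shared by RNF31 and IRF9 averaged 8.06 with GSK126 and 7.47 with DMSO, a difference of 0.59. In the arrays labelled SUP-B8 the same probe sets differed by 0.07 and 0.02.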

How the results depend on the processing

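Of the members given with full values, 13 of 20 in the NALM-6 response, 3 of 6 in the SUP-B8 response, 12 of 17 in the difference of responses and 12 of 12 between the lines kept their direction and their side of the threshold under every alternative run. Without one array at a time, members called ranged from 0 to 1 in the SUP-B8 response (1 with all arrays), from 20 to 22 in NALM-6 (22), from 15 to 18 for the difference (17) and from 26 to 27 between the lines (27). Other pathway genes called ranged from 0 to 3, from 40 to 53, from 33 to 42 and from 66 to 70 in the same order, with 3, 48, 41 and 71 from all arrays. The members called in SUP-B8 were 0 with no filter, with every probe set tested, with centred arrays, with a replicate block and with a fold threshold of 1.2, and were 2 with the mean of all probe sets and 3 with a trended robust variance prior. Other pathway genes called in SUP-B8 were 1 with no filter, with every probe set tested or with only the arrays compared, 8 with the trended robust prior and 0 with the fold threshold. The fold threshold left 13 members and 23 other pathway genes in NALM-6 and 17 other pathway genes for the difference. Of the 82 other pathway genes, the main fit called 12 higher and 29 lower for the difference, beside 10.9% and 14.5% of all genes. Between the lines it called 42 higher and 29 lower, beside 37.8% and 30.6%. Apart from the fit with no filter, the share of all genes called under each alternative was not counted. Counts under the alternatives thus show only how far the calls moved. IFNA17, not called, ranged in NALM-6 from -0.074 without replicate 2 of the NALM-6 DMSO arrays, a change of sign, to 0.21 without replicate 1. Replicates with the same number did not deviate together within a line (r = -0.042 in SUP-B8 and -0.018 in NALM-6 across genes). This correlation over all genes tested cannot show pairing that touches few genes, and pairing across the lines was not checked. The replicate block left 21 members called in NALM-6, 16 for the difference and 27 between the lines, and only the count of members in SUP-B8 moved by over 1.5 times. The cause of these changes was not tested, apart from the stricter null of the fold threshold. A fit of only the arrays compared does not exist for the difference of responses, which uses all 8. IRF7 lost its difference of responses under 12 of 17 alternatives and IFI6 under 6 of 16. Renewed normalization and centring moved the median of all genes by under 0.1 in each comparison. Signals below the array medians limit what can be said of dim members.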

Other observations

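Markers of further cell types gave similar counts in all groups. Of 5 T-cell markers, 2 lay above the array medians in each group, and the same held for 2 of 4 markers of plasmacytoid dendritic cells, the cells that release most interferon alpha in blood, and for 2 of 4 fibroblast markers. CLEC4C, a defining marker of plasmacytoid dendritic cells, averaged between 6.00 and 6.14 in the 4 groups, below the medians. Of 4 natural killer cell markers, 2 lay above the medians in the arrays labelled SUP-B8 and 1 in those labelled NALM-6.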
